A study of Mus musculus with 50 samples.

Results

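Regulatory T (Treg) cells of visceral adipose tissue (VAT), the fat depot of the abdominal cavity, were compared with Treg cells of the spleen in the arm labelled PBS. The comparison takes 4 VAT libraries and 3 spleen libraries, 7 of the 50 RNA-seq libraries of the series, chosen by tissue and arm in the library titles. All 7 are labelled as male, genotype WT and week 20, with the allele Foxp3tm3(HBEGF/GFP)Ayr/J on the background B6.129(Cg). With that allele the Foxp3 locus drives green fluorescent protein and a diphtheria toxin receptor, so the GFP used for sorting marks cells that transcribe Foxp3. The design text describes toxin given to receptor-positive and receptor-negative littermates on 3 days at 12 weeks of age, followed by 8 to 9 weeks of rest, while the titles name the arms PBS and DT. What the control animals received and carried therefore differs between the sources, so each arm is named by its title, as PBS-labelled or DT-labelled. Sorting for CD4 and Foxp3-GFP, in 2 rounds, gave 500 to 1000 cells for a library, after a digestion that differed between tissues. Nothing in the labels ties the libraries of 1 group to different mice. The p-values below therefore rest on library-to-library spread, part of which may be technical.

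Treg cells restrain other immune cells and depend on the transcription factor Foxp3 and on interleukin 2. In visceral fat of lean mice they form a resident population that is known for the nuclear receptor Pparg, for the interleukin 33 receptor ST2 (gene Il1rl1) and for the killer cell lectin-like receptor Klrg1. Spleen Treg cells include many recirculating cells that carry the lymph node homing receptor Ccr7. The comparison shows how the transcriptomes of these populations differ in control-labelled animals. Levels are CPM, the counts of a gene relative to the library total, after scaling of the libraries to each other by the TMM method, and they compare libraries for a gene, not genes with each other.

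The VAT libraries held 4987728 to 5663805 counts and the spleen libraries 3981261 to 6981037. Spleen replicate 3, the shallowest, had the most genes detected, 25779 after thinning to equal depth against 20125 to 21586 in the other 6 libraries. Ribosomal protein genes took 3.668% to 4.946% of counts in VAT and 5.061% to 6.144% in spleen. The T cell genes Cd3e and Cd4 were measured in all 7 libraries. Cd4 stood at 642 to 755 CPM in VAT and 477 to 622 in spleen, with no call (log2 fold change 0.32 ± 0.14 SE, edgeR adjusted p = 0.153). Cd3e stood at 578 to 652 CPM in VAT and 456 to 884 in spleen, with no call (-0.21 ± 0.14, edgeR adjusted p = 0.388), but it was called lower in VAT without spleen replicate 1 (-0.43, adjusted p = 0.0144) and with limma voom (-0.35, adjusted p = 0.0127). The first principal component held 43.78% of the variance and separated the tissues. VAT replicate 4 lay nearest to spleen on it (-36.87, against -52.65 to -66.67 for the other VAT libraries), and spleen replicate 1 lay farthest out (102.2, against 50.48 and 64.93). The second component (18.41%) set spleen replicate 1 (75.6) apart from replicates 2 and 3 (-34.43 and -70.28). VAT replicate 4 was the VAT library nearest to spleen for 784 of the 1538 genes called higher in VAT (51.0%) and 509 of the 1111 called lower (45.8%). Counts without both of these libraries are given for each list whose count moved by over 1.5 times and by more than 1 gene.

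Marker genes of other cells were summed per library, in CPM without TMM scaling. Adipocyte markers summed to 20.7 to 28.5 CPM in VAT and 36.9 to 56.3 in spleen, mostly Lipe. The defining Adipoq, Plin1, Cfd, Lep and Retn were at or below 1.6 CPM in every library. Macrophage and monocyte markers (4.21 to 11.7 against 9.8 to 13.5) and fibroblast markers (3.99 to 11.3 against 5.87 to 19.8) overlapped between the tissues. Mesothelial markers were higher in VAT (107 to 170 against 8.74 to 14.1), nearly all of it Lrrn4, and endothelial markers lower (62.4 to 97.4 against 221 to 235), nearly all of it Pecam1. T cell defining genes summed to less in VAT (5960 to 6840 against 8390 to 9590), with 5 of 10 called lower, among them Cd3d, Cd3g, Trbc1 and Trbc2. Mast cell and basophil markers summed to 5.47 to 30.7 CPM in VAT and 2.29 to 5.27 in spleen, mostly Kit, with Mcpt4 and Mcpt8 at 0 in all 7 libraries. The part of these sums in the results was not tested.

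Of 17731 genes tested, 2649 (14.9%) were called at an adjusted p under 0.05 by edgeR's quasi-likelihood test, 1538 higher in VAT (8.67%) and 1111 lower (6.27%). The libraries of the 2 tissues did not overlap for 3780 genes (21.3%), among them 1383 of the genes called higher and 911 of those called lower. A fold change over 2 was reached by 1051 of the higher and 703 of the lower genes, and the median log2 fold change of all tested genes was -0.06. A test against a 2-fold change left 481 higher and 211 lower, which moved the higher share of calls from 58.1% to 69.5%, and a fit of only the 7 compared libraries gave 940 and 686. In bulk libraries fewer cells of a kind and less RNA per cell cannot be told apart, which holds for each gene below. The same is true of an effect of tissue and an effect of digestion, which differed between tissues. In the plot of fold change against level, Cxcl2 stood at 9.97 on the log2 scale on the higher side and Cnn3 at -5.89 on the lower side.

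**Figure D1:**
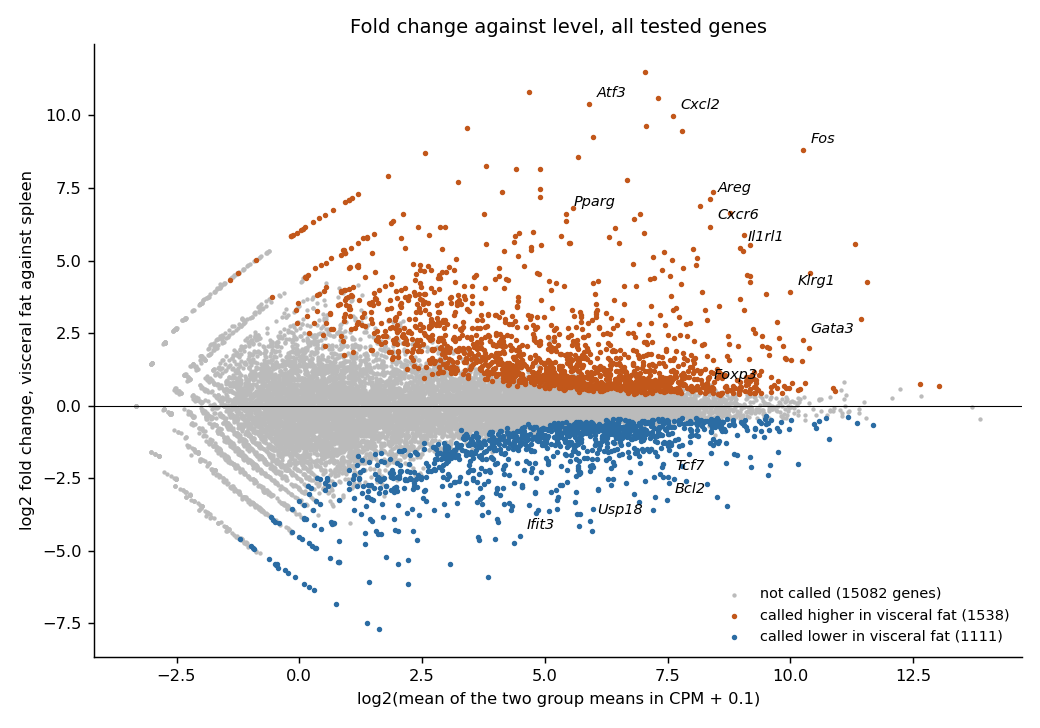
Log2 fold change of VAT against spleen for each of 17731 tested genes against its mean level (log2 of the mean CPM of the groups plus 0.1); orange points are the 1538 genes called higher in VAT, blue points the 1111 called lower and grey points the rest. Fos, Atf3 and Cxcl2 lie high above 0 and Bcl2, Usp18 and Ifit3 below it, and the called genes span the range of levels.

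Transcription factors of tissue Treg cells were mostly higher in VAT than in spleen. Of 19 tested members of this list, 12 rose and 0 fell (median log2 fold change 1.37, against -0.06 for all genes). Pparg, a fatty acid-responsive nuclear receptor that fat Treg cells are known to need (chr6:115360951-115490399, plus strand, mm10), held 68.3, 107, 84.5 and 80.6 CPM in VAT replicates 1 to 4 and 0, 0.188 and 2.76 CPM in spleen replicates 1 to 3. All 4 VAT libraries lay far above all 3 spleen libraries, and Pparg in spleen was near the detection limit. Its log2 fold change was 6.62 ± 0.74 (edgeR adjusted p = 3.86e-08). Gata3, a factor of type 2 immunity and of tissue Treg cells, held 1920, 2360, 2390 and 1450 CPM in VAT and 587, 312 and 365 in spleen. The groups did not overlap, and Gata3 was well expressed in spleen too (2.27 ± 0.24, edgeR adjusted p = 9.09e-09). Id2, an inhibitor of E protein factors, was 9.84-fold higher in VAT (251 to 447 CPM against 26.3 to 53.4). Rora, a retinoid-related orphan receptor, was 7.77-fold higher (462 to 653 against 55.6 to 88.6). Irf4, Prdm1, Maf, Batf, Bhlhe40, Nfil3, Runx3 and Zeb2 completed the 12.

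Genes of Treg identity moved less and in both directions. Of 22 tested, 12 rose and 4 fell (median 0.64), with 7 called higher in the fit of only the 7 libraries. Foxp3 (chrX:7573644-7595245, plus strand) held 409, 322, 490 and 329 CPM in VAT and 120, 287 and 319 in spleen, where replicate 1 was low. The groups did not overlap, but the lowest VAT and the highest spleen library lay close together. Its log2 fold change of 0.68 ± 0.21 was called (edgeR adjusted p = 0.0215), and the call was lost without spleen replicate 1 (0.36, adjusted p = 0.218), without VAT replicate 1 (0.61, 0.0576), without VAT replicate 3 (0.49, 0.125) and in the fit of only the 7 libraries (0.63, 0.232). Il2ra, the interleukin 2 receptor alpha chain CD25, held 773, 980, 1360 and 689 CPM in VAT and 838, 519 and 451 in spleen, so the groups overlapped. Its call (0.66 ± 0.20, edgeR adjusted p = 0.0251) was lost without VAT replicate 3 (0.36, adjusted p = 0.287), VAT replicate 2 (0.56, 0.108), spleen replicate 2 (0.56, 0.127) or spleen replicate 3 (0.48, 0.158). Ikzf2, which encodes Helios, rose by 0.62 ± 0.14 (693 to 838 CPM against 383 to 568, edgeR adjusted p = 0.00183), and its call was lost in the fit of only the 7 libraries (0.58, adjusted p = 0.0709).

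Larger differences within the identity list lay elsewhere. Ctla4, an inhibitory receptor, held 1510, 1050, 1510 and 648 CPM in VAT and 454, 278 and 310 in spleen. No spleen library reached the lowest VAT library, replicate 4 (1.76 ± 0.21, edgeR adjusted p = 1.51e-07). Il10, an anti-inflammatory cytokine, held 397, 255, 296 and 69.2 CPM in VAT and 5.31, 3.38 and 3.22 in spleen. VAT replicate 4 was the low library again and still far above spleen (5.96 ± 0.62, edgeR adjusted p = 9.68e-09). The 4 genes that fell were Lrrc32, Izumo1r, Gpr83 and Nt5e. Izumo1r, which encodes folate receptor 4, stood at 124 to 381 CPM in VAT and 1130 to 1410 in spleen (-2.39 ± 0.26), and Gpr83, a receptor gene typical of Treg cells, at 8 to 55.5 against 213 to 359 (-3.16 ± 0.42). Itgb8, Nrp1 and Il2rb were not called.

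**Figure D2:**
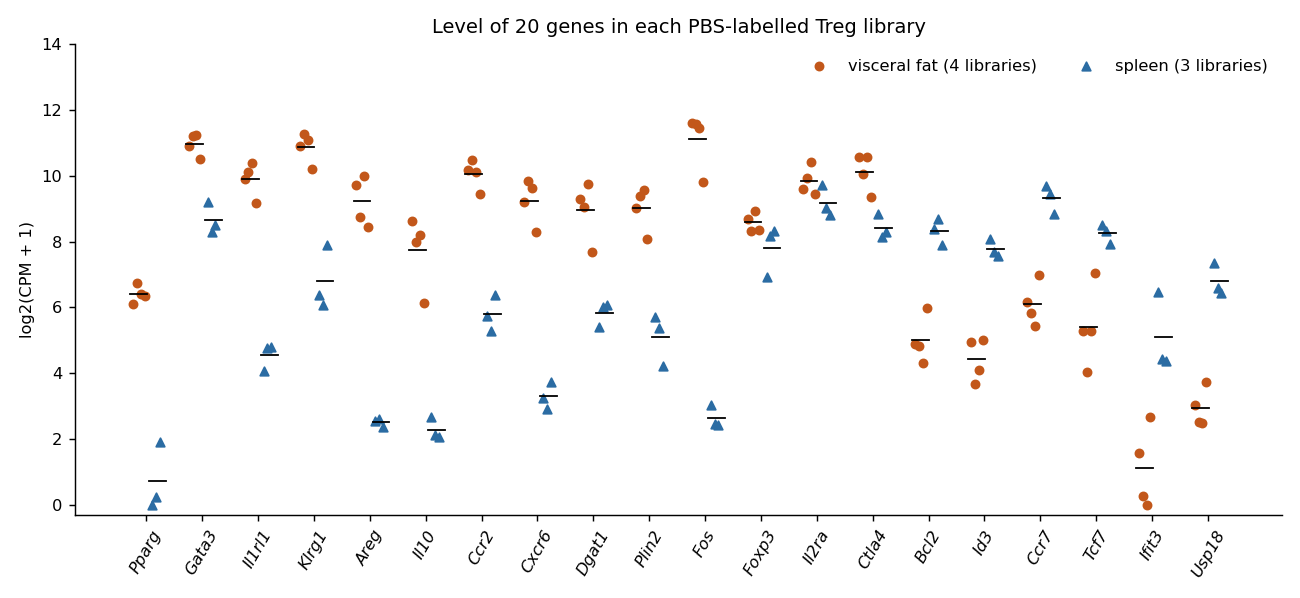
Level of 20 genes in each of the 7 libraries as log2(CPM + 1); orange circles are the 4 VAT libraries (replicates 1 to 4 from left to right), blue triangles the 3 spleen libraries and black lines the group means of the plotted values. Pparg, Il1rl1, Areg, Cxcr6 and Fos show wide gaps between the tissues, Foxp3 and Il2ra lie close together or overlap, and VAT replicate 4 (the rightmost circle) is the VAT library nearest to spleen for most of the genes shown.

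The receptor for interleukin 33, an alarm cytokine released by stromal cells, was among the largest changes of an abundant receptor. Il1rl1 (chr1:40429570-40465415, plus strand) held 946, 1100, 1330 and 575 CPM in VAT and 15.9, 26.3 and 26.9 in spleen. Every VAT library lay far above every spleen library, although the VAT libraries were themselves spread. The log2 fold change was 5.43 ± 0.39 (edgeR adjusted p = 2.88e-12). Of the 15 tested receptors and signalling genes of the interleukin 33, 1 and 18 family, 3 rose and 0 fell (median 0.20). The others that rose were Il18rap, a chain of the interleukin 18 receptor (99.2 to 195 CPM against 5.45 to 33.6), and Irak2, a kinase downstream of these receptors (104 to 147 against 31.7 to 62.7). The shared chain Il1rap and the adaptor Myd88 were not called, at means of 15.6 and 81.5 CPM in VAT and 20.8 and 88.3 in spleen. The 2 start sites of Il1rl1 in RefSeq (GRCm38.p6, plus strand) are shown because each window of 250 bases before to 50 after the start holds the GATA letters AGATAA or their reverse complement, in capitals, at positions -217 and -103 relative to the start.

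Il1rl1 start 1, chr1:40429320-40429619: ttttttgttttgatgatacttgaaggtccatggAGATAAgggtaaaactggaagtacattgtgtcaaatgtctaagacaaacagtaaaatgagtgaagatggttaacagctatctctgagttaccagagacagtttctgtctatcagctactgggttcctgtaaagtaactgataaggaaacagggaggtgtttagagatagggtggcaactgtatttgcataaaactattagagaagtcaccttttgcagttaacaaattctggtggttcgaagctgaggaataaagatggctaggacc

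Il1rl1 start 2, chr1:40439379-40439678: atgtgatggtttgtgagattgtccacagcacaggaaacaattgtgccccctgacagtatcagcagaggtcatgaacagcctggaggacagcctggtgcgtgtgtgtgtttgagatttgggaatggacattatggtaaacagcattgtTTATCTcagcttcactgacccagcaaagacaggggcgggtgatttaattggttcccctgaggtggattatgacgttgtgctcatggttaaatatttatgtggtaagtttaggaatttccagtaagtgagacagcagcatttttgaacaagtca

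Such a match is common and marks no binding: 11.2% of all 32851 promoter windows and 7.32% of those of tested genes held it, against 7.35% for genes called higher in VAT and 8.51% for genes called lower.

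Homing receptors differed by name. Of 21 tested, 9 rose and 3 fell (median 1.35). Ccr2, a receptor for monocyte chemoattractants, held 1160, 1420, 1110 and 697 CPM in VAT and 52.2, 37.6 and 81.7 in spleen. The tissues were far apart (4.27 ± 0.31, edgeR adjusted p = 3.47e-12). Cxcr6, a receptor of tissue-resident lymphocytes, held 585, 910, 794 and 309 CPM in VAT and 8.47, 6.57 and 12.2 in spleen. Replicate 4 was the lowest VAT library and far above the highest spleen level (6.17 ± 0.47, edgeR adjusted p = 1.01e-11). Ccr1 (113 to 382 CPM against 1 to 5.07) and Ccr3 (168 to 208 against 5.07 to 20), receptors for inflammatory CC chemokines, rose by 6.42 ± 0.64 and 4.11 ± 0.37. Ltb4r1, the leukotriene B4 receptor, was outside the list and held 557, 910, 812 and 460 CPM in VAT and 0.287, 5.26 and 7.83 in spleen. Spleen replicate 1 had almost no Ltb4r1, and no spleen library came near VAT (7.37 ± 0.52, edgeR adjusted p = 2.19e-12). The falling members were Cxcr5, the B cell follicle receptor, Ptger2 and Ccr10. Ccr10, a skin homing receptor, had 0 counts in all VAT libraries against 87 in spleen, which makes it at least 35.6-fold lower in VAT at a floor of 3 counts over the group.

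Adhesion genes were mainly higher, with 11 of 21 called higher and 1, Itga6, called lower (median 0.93). Cd44, a hyaluronan receptor of antigen-experienced T cells, stood at 697 to 1320 CPM in VAT and 140 to 211 in spleen (2.65 ± 0.21). Lgals3, a galectin, held 491, 593, 564 and 383 CPM in VAT and 5.17, 8.26 and 24.2 in spleen. These groups lay far apart (5.39 ± 0.46, edgeR adjusted p = 9.17e-11). Sdc4, a heparan sulfate proteoglycan, was 4.31-fold and Lgals1, another galectin, 3.98-fold higher in VAT. Itga1, the collagen-binding integrin alpha chain, stood at 11 to 34.9 CPM in VAT and 0.939 to 1.15 in spleen. Klrg1, a receptor for cadherins and the best known surface marker of fat Treg cells beside ST2 (chr6:122270596-122282882, minus strand), held 1920, 2450, 2150 and 1180 CPM in VAT and 82.8, 66.5 and 238 in spleen. Spleen replicate 3 was the highest of its group and still below all VAT libraries (3.90 ± 0.39, edgeR adjusted p = 3.04e-09). Among 17 tested killer lectin-like and cytotoxic genes, 5 rose and 3 fell (median 1.38, or 1.14 with the 3 genes at 0 in spleen set to their bound), and without VAT replicate 4 and spleen replicate 1 these counts were 3 and 2. The count of rising genes was also 3 without VAT replicate 2, spleen replicate 1 or spleen replicate 2. The fit of only the 7 libraries gave 3 higher and 1 lower, and with the replicate number as a block 2 higher and 0 lower. Gzma, a rising member and a marker of natural killer cells, held 0.903, 35.3, 2.01 and 0.599 CPM in VAT and 0, 0 and 1.38 in spleen, so it was high in VAT replicate 2 and the groups overlapped. Markers of natural killer cells and group 1 innate lymphoid cells, with 1 of 6 tested called higher, summed to 1.59 to 49.8 CPM in VAT and 3.98 to 9.54 in spleen, and their part in this list was not tested. Gzmb rose from 8.47 to 45.3 CPM in spleen to 109 to 188 in VAT.

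Repair factors and cytokines held some of the widest differences. Of 26 tested, 9 rose and 2 fell (median 1.63), with 1 called lower without VAT replicate 1, 3 or 4 or without spleen replicate 3. Areg, amphiregulin, a growth factor of tissue repair (chr5:91139599-91148432, plus strand), held 834, 429, 1010 and 348 CPM in VAT and 4.88, 5.07 and 4.14 in spleen. The spleen libraries were nearly equal, and the VAT libraries were more spread and far above them (7.11 ± 0.45, edgeR adjusted p = 1.41e-13). Fgl2, a fibrinogen-like suppressive mediator, held 760, 1450, 1210 and 829 CPM in VAT and 16.1, 47.7 and 77.6 in spleen, with no overlap (4.51 ± 0.47, edgeR adjusted p = 7.43e-09). Cxcl2, a neutrophil-attracting chemokine (chr5:90903871-90905938, plus strand), held 278, 456, 718 and 107 CPM in VAT and 0.431, 0.188 and 0.46 in spleen. It was near 0 in all spleen libraries (9.97 ± 0.89, edgeR adjusted p = 2.83e-10). Il5, a cytokine of eosinophil growth, held 21.7, 79, 26.3 and 12.2 CPM in VAT and 0.144, 0 and 0.46 in spleen, where 3 counts make the fold 189 (95% counting interval 64.6 to 921). Lta, lymphotoxin alpha, and Xcl1 were the members that fell, Lta from 46.2 to 61 CPM in spleen to 2.61 to 5.99 in VAT (-3.68 ± 0.32).

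Il5 and the peptide gene Calca are also markers of group 2 innate lymphoid cells. That marker list, with 3 of 6 tested members called higher, summed to 87 to 245 CPM in VAT and 22.2 to 27.9 in spleen, carried by Il9r, Il5 and Calca, while Il13 stood at or below 1.15 CPM. Calca was uneven, at 35.4, 15.2 and 23.1 CPM in VAT replicates 1 to 3 and 0.2 in replicate 4. Jchain, the antibody joining chain, held 388, 95.4, 0 and 667 CPM in VAT and 20.7, 1.5 and 0.691 in spleen, so the groups overlapped. Immunoglobulin transcripts followed a like order over the VAT libraries. In CPM without TMM scaling, Igkc stood at 1710, 367, 10.3 and 2390 CPM in VAT and 54.4, 6.96 and 11.8 in spleen. Ighm stood at 3860, 872, 379 and 5960 in VAT and 1480, 1610 and 1860 in spleen. Igkc was called higher in VAT (5.52, edgeR adjusted p = 0.00236), with overlapping groups, and Ighm was not called (0.83, adjusted p = 0.383). The B cell marker Ms4a1 was at or below 0.754 CPM in all libraries. B and plasma cell markers together spanned 22.4 to 707 CPM in VAT and 47.9 to 81.5 in spleen. Their part in the result for Jchain (5.13 ± 1.41, edgeR adjusted p = 0.0105) was not tested. The Jchain call was lost without spleen replicate 2 (4.66, adjusted p = 0.0544), in the fit of only the 7 libraries (5.12, 0.0706), with DESeq2 (5.21, 0.0639) and with limma voom (3.98, 0.663).

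The promoters of Areg and Cxcl2 are shown because they hold short factor motifs, in capitals: the cyclic AMP response element TGACGTCA in Areg at -61 and an NF-kB motif, searched in 3 forms, in Cxcl2 at -97, from RefSeq on GRCm38.p6, both on the plus strand.

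Areg, chr5:91139349-91139648: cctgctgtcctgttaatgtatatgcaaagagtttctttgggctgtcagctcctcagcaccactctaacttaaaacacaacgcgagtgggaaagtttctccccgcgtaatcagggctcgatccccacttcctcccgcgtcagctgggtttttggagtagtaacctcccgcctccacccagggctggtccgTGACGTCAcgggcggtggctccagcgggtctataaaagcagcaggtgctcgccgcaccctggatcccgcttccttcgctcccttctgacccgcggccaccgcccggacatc

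Cxcl2, chr5:90903649-90903948: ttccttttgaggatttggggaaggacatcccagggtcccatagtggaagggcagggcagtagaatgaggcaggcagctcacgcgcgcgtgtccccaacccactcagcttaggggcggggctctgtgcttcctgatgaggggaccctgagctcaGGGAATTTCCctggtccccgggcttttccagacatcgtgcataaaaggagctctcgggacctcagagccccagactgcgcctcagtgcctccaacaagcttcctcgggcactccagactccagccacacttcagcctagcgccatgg

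The response element occurred in 2.54% of the windows of genes called higher in VAT, 2.45% of those called lower and 2.75% of those tested. The NF-kB motif occurred in 1.0% of windows of the higher genes (15 of 1497), 0.489% of the lower (5 of 1022) and 0.423% of the tested. These motifs, on both strands, were described without a test, and the promoters printed are among those that held a match, while the windows of Pparg, Gata3, Plin2, Cxcr6, Fos and Atf3 held none of the motifs searched.

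Of 29 tested genes of lipid uptake and storage, 9 rose and 1, Lipe, fell (median 0.40), and without VAT replicate 4 and spleen replicate 1 the count of rising genes was 5. Without spleen replicate 1 alone it was also 5, and in the fit of only the 7 libraries it was 4. The count of falling genes was 2 without VAT replicate 4 and 0 without spleen replicate 1. Plin2, a coat protein of lipid droplets, held 519, 674, 751 and 270 CPM in VAT and 51.8, 40.6 and 17.5 in spleen. Hilpda, a lipid droplet protein that slows lipolysis, held 426, 348, 540 and 112 CPM in VAT and 36.7, 24.2 and 15.2 in spleen. Neither gene's groups overlapped, and VAT replicate 4 was lowest for both (3.90 ± 0.44 and 3.79 ± 0.41, edgeR adjusted p = 4.09e-08 and 1.92e-08). Dgat1, the last enzyme of triglyceride synthesis, held 624, 525, 865 and 206 CPM in VAT and 41, 64.2 and 65.8 in spleen, again with replicate 4 lowest and no overlap (3.29 ± 0.35, edgeR adjusted p = 1.41e-08). Fabp5, a fatty acid-binding protein, was 2.5-fold higher. Its call was lost in the 7 libraries with the replicate number as a block (1.34, edgeR adjusted p = 0.0525). Cd36, the fatty acid transporter, was low throughout, at 4.52, 4.51, 0.201 and 0.2 CPM in VAT and 0.144, 0 and 1.15 in spleen, and was not called (2.47 ± 1.54, edgeR adjusted p = 0.32).

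Of 19 tested genes of mitochondrial fatty acid oxidation, 7 rose and 0 fell (median 0.28). The count of rising genes was 4 in the fit of only the 7 libraries, with no filter on low counts or without VAT replicate 3. It was 2 in the 7 libraries with the replicate number as a block. A single member, 1, was called lower without spleen replicate 2 or without spleen replicate 3. Cpt1a, the entry step for long-chain fatty acids, stood at 160 to 241 CPM in VAT and 49.1 to 70.4 in spleen (1.78 ± 0.23, edgeR adjusted p = 4.02e-07). Acadl, a dehydrogenase of the pathway, was 2.27-fold and the carnitine carrier Slc25a20 1.76-fold higher. The Slc25a20 call was lost in the 7 libraries with the replicate block (0.811, edgeR adjusted p = 0.0684). Of 22 sterol synthesis genes 4 rose and 0 fell (median 0.37, with 7 called without VAT replicate 4 and spleen replicate 1), among them Lss, lanosterol synthase (33.2 to 64.7 CPM against 19.4 to 21.9), and the regulator Srebf2. Lss itself was not called without these libraries (1.11, edgeR adjusted p = 0.095), and the count was 7 also without spleen replicate 1 alone. Among 15 genes of the liver X receptor and cholesterol efflux, 3 rose and 1, the exporter Abcg1, fell (median 0.17), with 2 called lower without VAT replicate 4. Abcg1 held 166, 107, 132 and 187 CPM in VAT and 615, 200 and 242 in spleen, where replicate 1 was the high library (-1.25 ± 0.23). Hormone and nuclear receptors had 8 of 16 called higher and 1, Igf1r, lower (median 0.83), with 5 called higher in the fit of only the 7 libraries. Rara, a retinoic acid receptor, was 2.55-fold higher and Gpr65, a proton-sensing receptor, 2.35-fold higher. Cyp11a1, the enzyme that starts steroid hormone synthesis, held 39.2, 86.6, 47.8 and 62.7 CPM in VAT and 0, 0 and 1.38 in spleen (7.19 ± 0.97, edgeR adjusted p = 1.03e-06). Spleen Treg cells had almost none of it.

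Among 24 glycolysis and hypoxia genes 9 rose and 1 fell (median 0.35), with 4 called higher in the fit of only the 7 libraries, and 2 called lower without VAT replicate 1, 3 or 4 or without spleen replicate 3. Egln3, an oxygen-sensing prolyl hydroxylase, rose from 3.59 to 5.99 CPM in spleen to 45.1 to 98.3 in VAT, and Ndrg1, another hypoxia-inducible gene, was 6.46-fold higher. Pdk1, a pyruvate dehydrogenase kinase, was the member that fell (40.5 to 101 against 130 to 189). The glycolytic enzyme Aldoa was 1.63-fold higher, and its call was lost in the 7 libraries with the replicate block (0.705, edgeR adjusted p = 0.0867).

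Immediate early and dissociation stress genes were the list with the largest median. Of 33 tested, 24 rose and 0 fell, with a median log2 fold change of 3.68. Fos, a subunit of the AP-1 factor, held 3090, 3030, 2810 and 893 CPM in VAT and 7.18, 4.51 and 4.37 in spleen. VAT replicate 4 stood below the other VAT libraries and far above spleen (8.80 ± 0.52, edgeR adjusted p = 2.8e-14). Jun, its partner, held 594, 639, 537 and 366 CPM in VAT and 11.2, 19.2 and 17 in spleen (5.09 ± 0.30). Dusp1, a phosphatase of stress kinases, held 5120, 5140, 6770 and 2940 CPM in VAT and 113, 88.8 and 113 in spleen, with no overlap (5.57 ± 0.29, edgeR adjusted p = 3.52e-15). Atf3, a stress factor, held 179, 103, 134 and 61.7 CPM in VAT and had 1 count in spleen, a ratio of 2020 (95% counting interval 361 to 79600). Ier3, an immediate early gene, had 0 counts in spleen and was at least 285-fold higher in VAT at a floor of 3 counts over the group. Hspa1a, a heat shock protein, held 21.5, 28.9, 7.23 and 179 CPM in VAT, with replicate 4 the high library, and the edgeR call (adjusted p = 0.000212) was lost with limma voom (adjusted p = 0.252). Tissue and digestion protocol go together in these libraries. An effect of tissue and an effect of digestion therefore cannot be told apart, for these genes or any other gene reported here.

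Of 19 T cell receptor response genes, 9 rose and 1 fell (median 1.26), with 2 called lower without VAT replicate 4. Nr4a1, an orphan nuclear receptor induced by receptor signalling, held 3140, 1900, 3950 and 1380 CPM in VAT and 133, 123 and 73 in spleen, and Nr4a3 held 398, 269, 467 and 151 against 13.1, 11.3 and 13.6. Both were without overlap (4.56 ± 0.36 and 4.66 ± 0.36, edgeR adjusted p = 2.17e-11 and 1.02e-11). Tnfsf8, the ligand of CD30, was the member that fell. Cd69, a retention receptor that is also an early activation marker, stood at 635 to 1370 CPM in VAT and 108 to 302 in spleen. In the list of TNF receptors and NF-kB genes, 9 of 26 rose and 4 fell (median 0.20), with 5 called higher without spleen replicate 1 and in the fit of only the 7 libraries. The rising members included the feedback inhibitor Tnfaip3 (822 to 2630 CPM against 67.7 to 108). Nfkbid (395 to 1150 against 36 to 79.8) and Nfkbiz (433 to 1040 against 129 to 141), of the IkB family of NF-kB regulators, rose as well. Ltb, lymphotoxin beta, fell from 1290 to 2880 CPM in spleen to 401 to 562 in VAT (-2.01 ± 0.19).

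**Figure D3:**
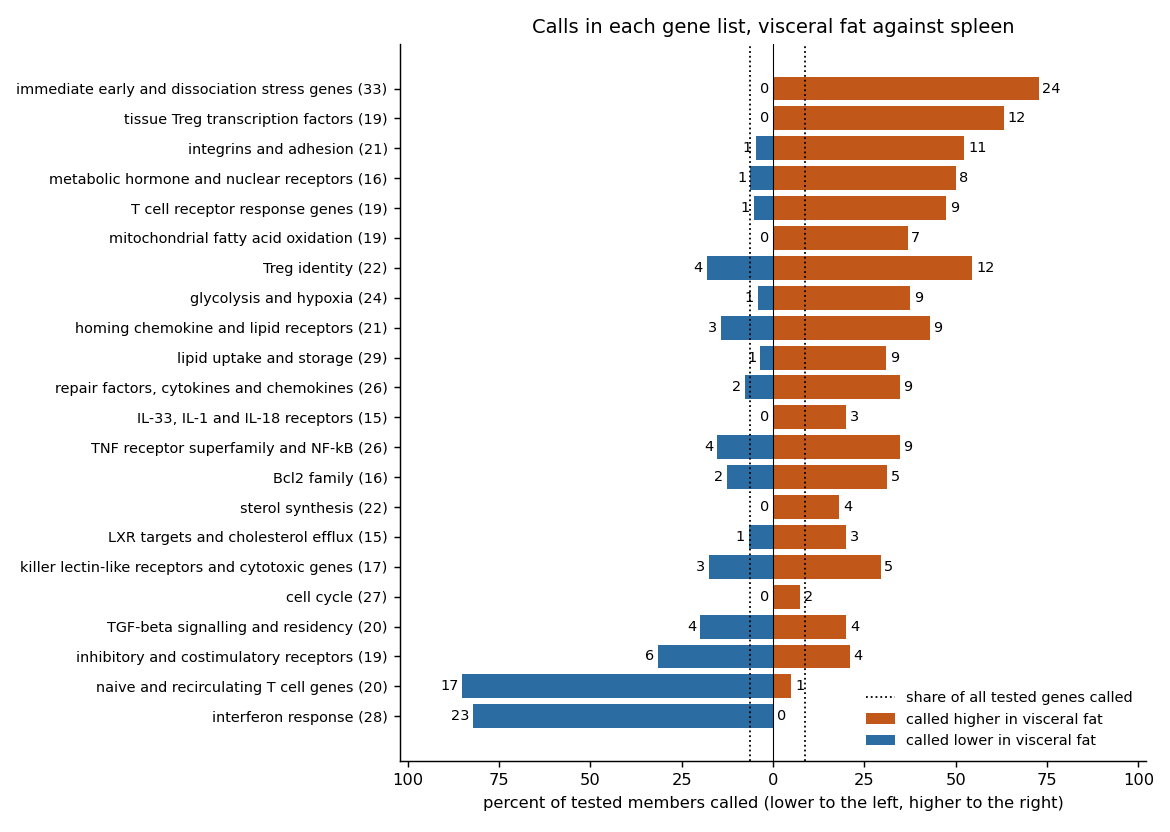
Percent of the tested members of each gene list called higher (orange, to the right) or lower (blue, to the left) in VAT, with the counts at the bar ends and the number tested in brackets; dotted lines mark the share of all tested genes called in each direction (8.67% and 6.27%). Immediate early genes had 24 called higher, interferon response genes 23 called lower and naive and recirculating genes 17 called lower.

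Genes of naive and recirculating T cells were lower in VAT as a list, with 17 of 20 called lower and 1, Il7r, called higher (median -2.56). Il7r was not called without VAT replicate 3 or without spleen replicate 1. Bcl2, a survival factor, held 28.9, 27.5, 18.7 and 62.1 CPM in VAT and 330, 410 and 236 in spleen, with replicate 4 the highest VAT library and still below every spleen library (-3.25 ± 0.32, edgeR adjusted p = 2.64e-09). Id3, an inhibitor of E proteins, stood at 11.7 to 31.5 CPM in VAT and 186 to 271 in spleen, the opposite direction to Id2. Txk, a Tec family kinase, was 6.27-fold lower and Igfbp4, a growth factor-binding protein, 20.0-fold lower. The Bcl2 family as a whole had 5 of 16 called higher and 2 lower (median 0.58), with 3 higher and 1 lower in the fit of only the 7 libraries and 1 lower without spleen replicate 2. Bcl2l1, which encodes the survival factor Bcl-xL, stood at 327 to 568 CPM in VAT and 76.8 to 104 in spleen (2.24 ± 0.22), opposite to Bcl2.

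Interferon response genes were lower in VAT, with 23 of 28 called lower and 0 higher (median -1.35). Usp18, an interferon-induced protease, held 7.22, 4.72, 4.62 and 12.2 CPM in VAT and 161, 95.8 and 85.4 in spleen, and Ifit3, an antiviral effector, held 1.99, 0.205, 0 and 5.39 against 87.8, 20.8 and 19.8. The groups did not overlap, and spleen replicate 1 was the highest library for both (-3.98 ± 0.39 and -4.48 ± 0.70, edgeR adjusted p = 2.4e-09 and 1.44e-05). Oasl2, a relative of the antiviral oligoadenylate synthetases, was 24.4-fold lower. Without spleen replicate 1 the list had 19 called lower, and without VAT replicate 4 as well it had 21. The promoter of Ifit3 (RefSeq, GRCm38.p6, plus strand) is shown because it holds 2 matches, in capitals, to the interferon-stimulated response element, whose repeats read along the minus strand,, at -156 and -122.

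Ifit3, chr19:34583279-34583578: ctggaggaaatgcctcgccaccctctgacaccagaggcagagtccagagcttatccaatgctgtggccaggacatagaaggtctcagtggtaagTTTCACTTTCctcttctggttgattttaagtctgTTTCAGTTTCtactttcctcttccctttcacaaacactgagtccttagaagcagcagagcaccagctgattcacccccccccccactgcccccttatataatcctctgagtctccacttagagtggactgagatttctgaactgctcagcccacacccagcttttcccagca

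This motif occurred in 12 of 19 promoter windows of the interferon genes called lower that matched the RefSeq table (63.2%). Over the whole interferon list, called or not, it occurred in 14 of 24 windows (58.3%). The share of windows was 7.24% for all genes called lower, which include these, 2.34% for genes called higher and 3.07% for those tested. The AP-1 letters TGACTCA or TGAGTCA occurred in 4.68%, 4.4% and 4.1% of the windows of higher, lower and tested genes, and in 0 of 20 windows of the immediate early genes called higher. The direct repeat bound by Pparg with its partner Rxra was searched in its consensus form. It occurred in 0 of 1497 windows of the higher genes, 1 of 1022 of the lower and 6 of 15359 of those tested (0.0391%). These counts are too few to compare.

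Inhibitory and costimulatory receptors split, with 4 of 19 called higher and 6 lower (median -0.12). Cd200r1, an inhibitory receptor, stood at 235 to 514 CPM in VAT and 36.3 to 62.2 in spleen (3.05 ± 0.25), whereas its ligand gene Cd200 fell from 64.7 to 150 CPM in spleen to 14.2 to 27.7 in VAT (-2.25 ± 0.30). Cd96, a nectin-binding receptor, and Cd86, a costimulatory ligand, were 6.27-fold and 6.69-fold lower. Residency and transforming growth factor beta genes had 4 of 20 called each way (median 0.12), and 5 higher and 2 lower without VAT replicate 4 and spleen replicate 1. Without spleen replicate 3 alone 2 were called lower, and in the fit of only the 7 libraries 1. Furin, the protease that matures this cytokine, was 4.39-fold higher. The cell cycle count turned on single libraries. It was 2 of 27 called higher, Tpx2 and Cdt1, and 0 lower (median 0.75), but 12 higher without spleen replicate 3, 11 with no filter on low counts, 1 without VAT replicate 2 and 0 without VAT replicate 4, spleen replicate 1 or spleen replicate 2. Without both VAT replicate 4 and spleen replicate 1 neither Tpx2 (1.16, edgeR adjusted p = 0.294) nor Cdt1 (0.5, adjusted p = 0.174) was called. Tpx2 was uneven in VAT, at 11.9, 30.8, 19.9 and 71 CPM, and Cdt1, a replication licensing factor, differed by 1.46-fold.

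Further genes named for their size of change lay outside the lists. Higher in VAT were Pcsk1, a prohormone convertase (142 to 429 CPM against 0 to 1.15), and Kcna4, a potassium channel (27.3 to 95 against 0 to 0.563). Fam183b had 0 counts in spleen and was at least 116-fold higher. Lower in VAT were Cnn3, a calponin (0 to 0.803 CPM against 15 to 39.3), Dtx1, a regulator of Notch signalling (2.35 to 12.2 against 85.4 to 119), and Gpr18, an orphan lipid receptor (2.67 to 11.7 against 91.6 to 96.3). Gata1, a factor of erythroid and mast cell lineages, was 12.3-fold lower and Gucy1a1, a guanylate cyclase subunit, 23.3-fold lower. Atp1b1, Sgk3, Nsg2 and Gabrr2 were also among the largest falls.

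The VAT libraries were also compared with PBS-labelled lung, liver and ear skin, 3 libraries each. These comparisons share the VAT libraries with each other and with the spleen comparison, so their values are given side by side. VAT differed from lung in 3142 genes (17.7%, with 9.6% higher and 8.12% lower in VAT), from liver in 2122 (12.0%, with 5.85% and 6.12%) and from ear skin in 2452 (13.8%, with 7.97% and 5.85%). Pparg stood at 85.1 ± 16.2 CPM (SD, n = 4) in VAT, 3.64 in lung, 5.11 in liver and 8.24 in ear skin, and was called higher in VAT against each (log2 fold change 4.51, 4.03 and 3.36). Il1rl1 was called against each as well but by less, at means of 375, 472 and 378 CPM and log2 fold changes of 1.40, 1.07 and 1.38. Areg was called against lung (1.37) and not against liver (0.24) or ear skin (0.57). Plin2, at 34.5, 57 and 43.4 CPM in lung, liver and skin, was higher in VAT by 4.0, 3.28 and 3.67. Dgat1 was lower in VAT than in lung (-1.70) and liver (-2.02) and higher than in skin (1.04).

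**Figure D4:**
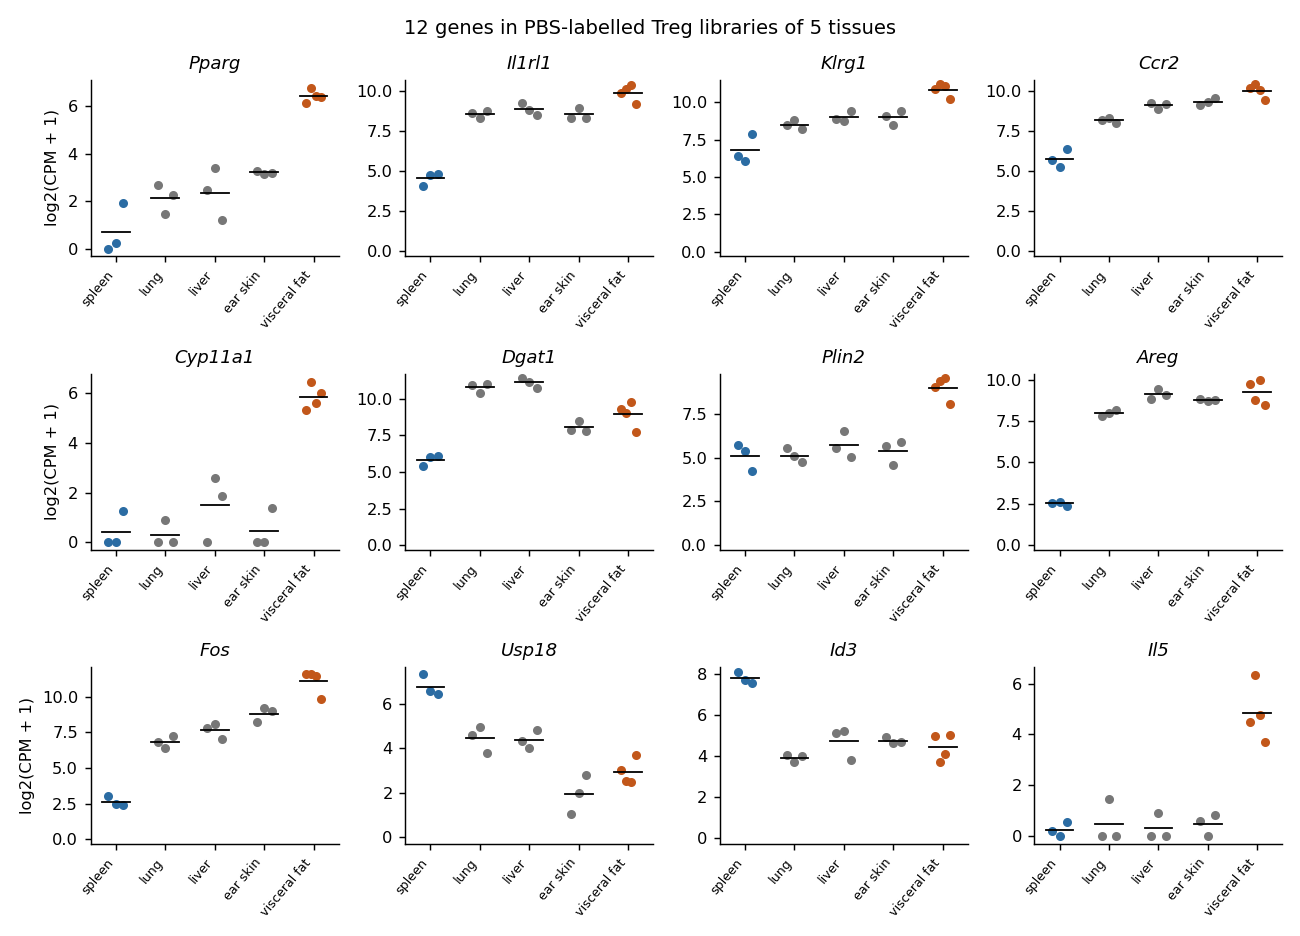
Level of 12 genes as log2(CPM + 1) in PBS-labelled Treg libraries of spleen (blue), lung, liver and ear skin (grey, 3 libraries each) and VAT (orange, 4 libraries); black lines are means of the plotted values and each panel has its own vertical scale. Pparg, Cyp11a1, Plin2 and Il5 stand high in VAT alone among the 5 tissues shown, Il1rl1 and Areg are low in spleen alone, and Usp18 is lower in VAT and ear skin than in the other tissues.

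By list, immediate early genes were called higher in VAT for 16 of 33 against lung, 9 against liver and 12 against ear skin, and lower for 1, 6 and 4. Fos was higher in VAT against all of these (4.41, 3.55 and 2.41), and Atf3 was called against none of them (0.93, 0.47 and 1.22). Interferon response genes were called lower for 16 of 28 against lung and 18 against liver, and higher for 10 against ear skin. Naive and recirculating genes were called lower for 15 of 20 against lung and 13 against liver, and higher for 7 against ear skin. Fatty acid oxidation genes were called higher for 11 of 19 against lung, 4 against liver and 10 against ear skin, with 0 lower in each. Tissue Treg transcription factors were called higher for 6 of 19 against lung, 3 against liver and 4 against ear skin, and lower for 7 in each. Homing receptors were called higher for 6, 4 and 7 of 21, and lower for 2, 7 and 4. Lipid uptake and storage genes were called higher for 4, 1 and 4 of 29, and lower for 4, 5 and 4. The genes with the largest smallest fold over the 4 other tissues were Cxcl3, Il5, Cyp11a1, Jchain and Bace2 on the higher side and Nsg2, Trat1, Hmgn1, Zbtb46 and Cd83 on the lower. Against spleen, Zbtb46 was not called without spleen replicate 1 (-1.21, edgeR adjusted p = 0.0688). Cyp11a1 stood at 59.1 CPM in VAT and at 0.294, 2.58 and 0.527 in lung, liver and skin. Hmgn1, a nucleosome-binding protein, stood at 10.7 CPM in VAT, 70.9 in spleen and 65.3, 38.9 and 68.5 in lung, liver and skin. Cd83, an activation marker, stood at 116 CPM in VAT, 373 in spleen and 826, 1470 and 1490 in the others.

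The same tissue comparison was made in the DT-labelled arm, with 4 VAT and 3 spleen libraries that it shares with no PBS-labelled group. It gave 1569 calls (8.85%), 1010 higher (5.7%) and 559 lower (3.15%). Of the genes called higher in the PBS-labelled arm, 789 were called higher there too (51.3% of the first list and 78.1% of the second), and of the lower genes 407 (36.6% and 72.8%). Over all tested genes the log2 fold changes of the arms had a Pearson correlation of 0.481, across genes, which are not independent replicates. Of the 116 named genes called in the PBS-labelled arm, 98 were called in the same direction in the DT-labelled arm. The fold change was smaller there for 104 of the 116, but these genes were chosen for their change in the PBS-labelled arm. Pparg had a log2 fold change of 5.29 and Il1rl1 of 4.22 in the DT-labelled arm, and Fos of 8.28. Foxp3 (0.26, edgeR adjusted p = 0.55) and Ifit3 (-0.89, adjusted p = 0.48) were not called there. Interferon response genes were called lower for 10 of 28, against 23 in the PBS-labelled arm, and fatty acid oxidation genes higher for 2 of 19, against 7. Naive and recirculating genes were called lower for 14 of 20, against 17, and immediate early genes higher for 28 of 33, against 24. The direct test between the arms, given below, called no member of these lists.

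A direct test of the tissue difference between the arms called 3 genes (0.0169%), which fall outside the naming rule and are given because they are few. Diaph3, a formin, stood at 5.6 to 12.2 CPM in VAT and 1.15 to 1.84 in spleen in the PBS-labelled arm, and at 2.75 to 5.97 and 5.8 to 7.19 in the DT-labelled arm (difference -3.01 ± 0.55, edgeR adjusted p = 0.0318). Lamc1, a laminin chain, and Mapkbp1, a signalling adaptor, kept higher VAT levels in both arms with a smaller gap in the DT-labelled arm (-1.73 ± 0.32 and -2.38 ± 0.37, edgeR adjusted p = 0.0318 and 0.00533). This count ranged from 0 to 15 when single libraries were left out.

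**Figure D5:**
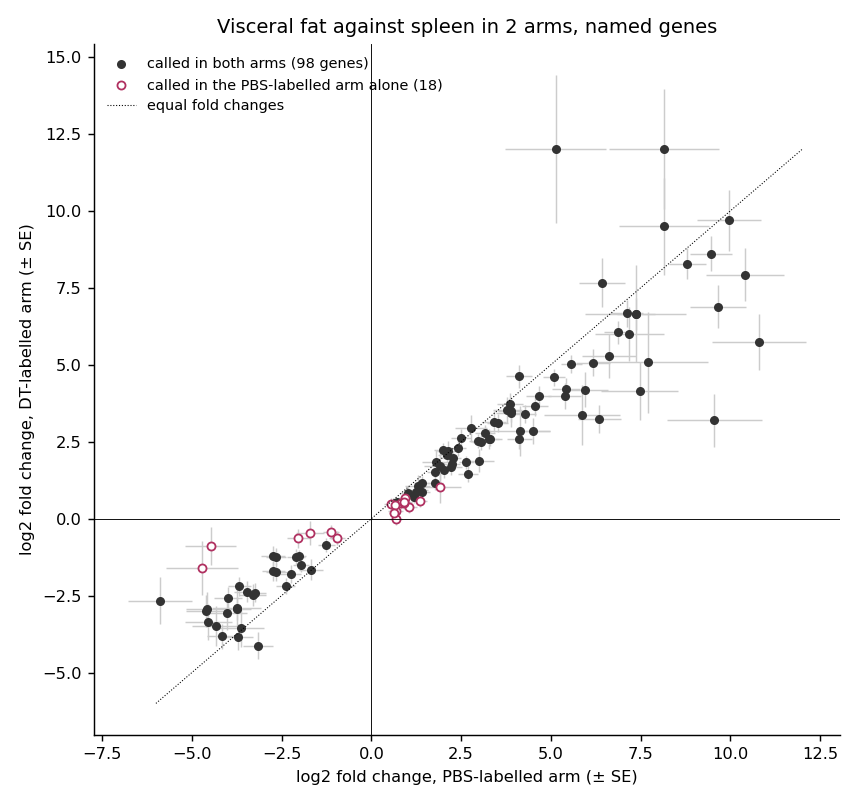
Log2 fold change of VAT against spleen in the DT-labelled arm against that in the PBS-labelled arm for the 116 named genes called in the latter, with bars of ± SE; filled points are the 98 also called in the DT-labelled arm, open points the other 18, and the dotted line marks equal fold changes. Nearly all points share their sign, and 104 of the 116 lie nearer to 0 in the DT-labelled arm.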

How the data were processed

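The file the authors deposited holds raw counts, whole numbers for each gene symbol in 50 libraries. STAR 2.7.3a, featureCounts and the build mm10 are the tools and build named, per the submitters' processing notes. Annotation, strand setting and handling of reads with several matches: not given in the sources used here. Counts of near-identical copies (Hspa1a and Hspa1b, Gbp2 and Gbp2b, the Bcl2a1 genes) and of overlapping genes are therefore uncertain. In GENCODE M21, used for positions, 27 of the 119 named genes share exon bases with another gene of the table, 22 of them on the opposite strand. The protocol text of the labels speaks of muscle cells and whole muscle, which the design text does not.

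All 32 peripheral Treg libraries (10 groups) were fitted in edgeR 4.0.16 (R 4.3.3) with TMM, filterByExpr (minimum count 10, minimum total 15) and the two-sided quasi-likelihood F test, with Benjamini-Hochberg adjustment over 17731 genes at 0.05. SE was obtained by dividing the absolute log2 fold change by the root of F. Counting intervals and floors (3 counts) cover counting error only. Alternatives were DESeq2 1.42.0, voom in limma 3.58.1, other scaling, no filter, fewer libraries, a replicate block and a 2-fold test. Same-numbered libraries showed no clear pairing (correlations of same-numbered deviations 0.0399, -0.0391 and 0.0274). So few pairs cannot exclude that the replicate numbers pair the libraries. Chi-square per degree of freedom between replicates was 13.63 to 66.52, so none differed from another of its group by counting error alone. This cannot show whether replicates came from different mice or different sorts.

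The members, gene lists and tests were chosen with earlier results of these data known. The naming rule took the 15 largest changes each way among called genes whose libraries do not overlap and whose mean reached 10 CPM, up to 4 called members of each list with the smallest adjusted p, a set of Treg genes, and the 5 each way with the largest smallest fold over 4 tissues, leaving out numbered gene models, pseudogenes and receptor or immunoglobulin segments. Other list members, Igkc, Ighm, the 3 genes of the test between arms, the printed promoters, the cyclic AMP and interferon response motifs and a serum response motif with no match in either set of called genes were chosen after values were seen. Promoters come from RefSeq (GRCm38.p6), which matched 12100 of the tested symbols. Some genes named by the rule are not reported here.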

Additional observations from a re-analysis of the deposited data

Results flagged for a closer look

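Single VAT libraries stood apart from the other 3 of their group in 5 of 125 sets of values checked, where chance gives about 1 in 20. Fos stood at 893 CPM in VAT replicate 4 against 2810 to 3090 in the others. Hspa1a stood at 179 CPM in VAT replicate 4 against 7.23 to 28.9. Slc25a20 stood at 81.9 CPM in VAT replicate 3 against 64.2 to 66.8. Tnfaip3 stood at 2630 CPM in VAT replicate 3 against 822 to 1080. Bace2, a protease related to the beta-secretase, stood at 237 CPM in VAT replicate 2 against 11.4 to 39.9. The gap between VAT and spleen differed between the arms for 3 genes by edgeR's test of the difference itself, Diaph3 (-3.01, adjusted p = 0.0318), Lamc1 (-1.73, adjusted p = 0.0318) and Mapkbp1 (-2.38, adjusted p = 0.00533), each on the log2 scale as the DT-labelled minus the PBS-labelled difference.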

How the results depend on the processing

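The 2649 calls of VAT against spleen (1538 higher, 1111 lower) became 1626 (940 and 686) with only the 7 compared libraries, where fewer genes were tested, and 692 (481 and 211) with a test against a 2-fold change. With the replicate block they became 1321 (799 and 522) in the 7 libraries and 2497 in all 32. Not every library correlated best with its own number, but the few same-numbered pairs cannot settle whether the replicate numbers pair the libraries. DESeq2 gave 3134, voom 2974, other size factors 2721, no filter 2417, and leaving out both VAT replicate 4 and spleen replicate 1, chosen after seeing the data, 2006. Leaving out 1 library gave 1951 (without spleen replicate 1) to 2863 (without spleen replicate 3), with 1179 to 1592 higher and 751 to 1271 lower. The 2122 calls against liver became 1341 without liver replicate 2 and 1949 at the other end of its range (without VAT replicate 4), the 2452 against ear skin 1395 without ear skin replicate 2 (2004 without VAT replicate 4), and the 1569 in the DT-labelled arm 961 and 1026 without its spleen replicates 5 and 6 (1512 without its VAT replicate 8). The 3 calls of the difference between arms became 100 without a filter, 11 with DESeq2 and 1 with the replicate block, and 0 (without spleen replicate 1 of the PBS-labelled arm) to 15 (without its spleen replicate 3) with 1 library left out. The cause of these changes was not tested. Of 1783 values of the named genes under the alternatives, 1719 kept direction and call, 61 lost the call, 3 gained it and 0 reversed, and 98 of 116 called genes were called under each alternative. Cdt1, Tpx2, Foxp3, Il2ra and Srebf1 lost the call in 6 or more alternatives. Depth limits genes below 1 CPM, which rest on few reads a library.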
